A study of Mus musculus with 4 samples.

Results

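The mRNAs of 10 cytosolic glycolytic enzymes, Hk2, Gpi1, Pfkl, Aldoa, Tpi1, Gapdh, Pgk1, Pgam1, Eno1 and Pkm, were examined as a measure of how much cytosolic RNA came along with mitochondria isolated from brown adipose tissue (BAT) of mice. They were taken by gene symbol from 17259 listed genes, as abundant mRNAs. The rule itself used no value, though the set was chosen with earlier results of these data known. All 10 were present in every library and all 10 passed the filter for testing, a mean of at least 10 normalised counts. Aldoa was listed under 2 identifiers. ENSMUSG00000030695 was used for its higher mean. ENSMUSG00000114515, which lies next to it on the same strand of chromosome 7, had normalised counts of 0, 0, 1 and 0. The series comprises 2 libraries of isolated mitochondria (BAT-Mito) and 2 libraries that the treatment label calls the tissue minus mitochondria and the title calls BAT-total. Both groups came from animals of WT genotype with no treatment beyond the fractionation, and the labels give neither age nor sex. The labels do not say whether the 2 libraries of a group came from separate animals, so that p-values measure the spread between these libraries, which may be technical. A supplement of the study speaks of total lysates for the second group. If so, BAT-total holds the mitochondria as well. The methods describe digitonin and RNase A added to mitochondria before RNA isolation, and do not say whether this was done for brown fat.

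Glycolysis splits glucose into pyruvate in the cytosol. The early enzymes, from hexokinase to triosephosphate isomerase, spend ATP and form triose phosphates, and the later enzymes, from glyceraldehyde-3-phosphate dehydrogenase to pyruvate kinase, regain ATP and NADH. Brown fat, the heat-producing fat, takes up much glucose when stimulated. None of the 10 enzymes is made inside mitochondria, and their mRNAs are translated on ribosomes of the cytosol.

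The mitochondria libraries held 26288871 and 24910434 reads on genes, of which 95.3% and 95.5% lay on the mitochondrial genome. Nuclear-encoded genes that do not resemble mitochondrial transcripts shared 59288 and 67370 reads there, which is the depth behind the glycolytic values. In BAT-total the normalised counts of these genes came to 737926 and 725186, and the reads behind them are unknown. A normalised count is a gene's reads divided by a size factor of its library. Each read of a mitochondria library counts for several units, 8.32 in replicate 1 and 6.90 in replicate 2. Brown adipocyte markers were present in the 4 libraries, with 0 of 14 at 0 in any of them.

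Against the RNA of the mitochondrial genome, glycolytic mRNAs were far scarcer in BAT-Mito than in BAT-total. Per 1000000 counts of the 13 mitochondrially encoded mRNAs, the 10 genes together had 44.9 counts in BAT-Mito replicate 1, 207 in replicate 2, 41663 in BAT-total replicate 1 and 38435 in replicate 2. BAT-Mito replicate 1 therefore lay 893-fold and replicate 2 193-fold below the BAT-total mean, or at 0.112% and 0.517% of it. On the log2 scale the ratio was -13.34 ± 1.56 in BAT-Mito and -4.64 ± 0.0823 in BAT-total (SD, n = 2 each), a difference of -8.70 that exceeded the spread of both groups. The difference was -8.29 for abundant cytosolic mRNAs and -8.80 for enzymes of the TCA cycle, both near that of the glycolytic genes. It was -9.37 for fatty acid synthesis and -10.18 for long RNAs listed as nuclear. Marker lists of other tissues were not compared in this way. For the glycolytic genes the exact two-sided permutation test gave p = 0.33, the smallest value that 2 against 2 libraries allow.

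The 2 mitochondria libraries differed in the share of the 10 genes among nuclear-encoded reads. Nuclear-encoded genes that do not resemble mitochondrial transcripts held 0.225% and 0.271% of all normalised counts in replicates 1 and 2. The 10 genes took 160 reads, or 0.270% of the nuclear-encoded reads (95% exact binomial interval 0.230 to 0.315%), in BAT-Mito replicate 1. They took 670 reads, or 0.993% (0.921 to 1.07%), in replicate 2. In BAT-total the shares of nuclear-encoded counts were 0.686% and 0.860%. Replicate 1 thus lay below both BAT-total libraries and replicate 2 above both. The means were 0.631% ± 0.511 in BAT-Mito and 0.773% ± 0.123 in BAT-total (SD, n = 2 each), and the difference of -0.142 percentage points was smaller than the spread of BAT-Mito (exact two-sided permutation test, p = 1). Without BAT-Mito replicate 1 the difference was 0.220 percentage points, in the other direction. Without BAT-Mito replicate 2 it was -0.503. The intervals cover counting error only.

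**Figure D1:**
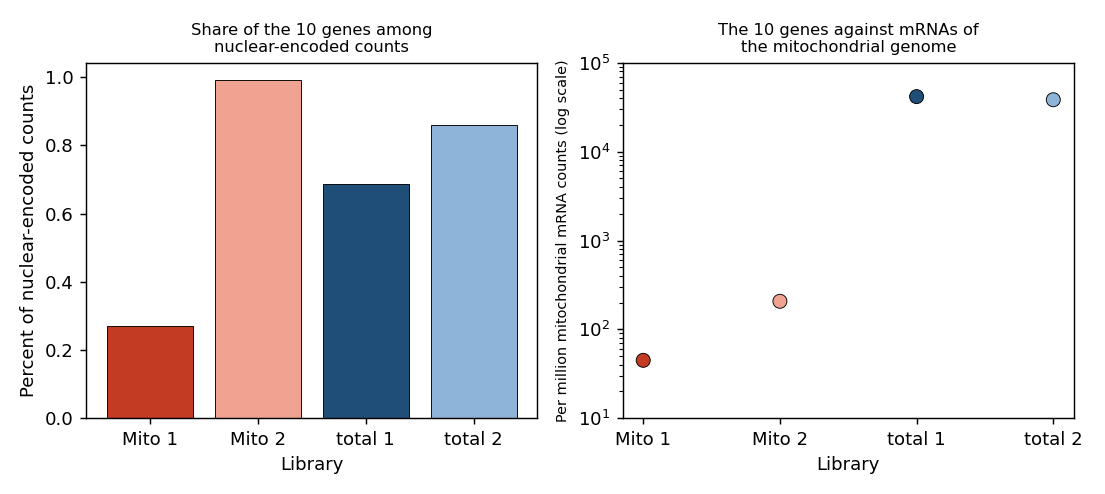
Left, share of the 10 glycolytic genes among nuclear-encoded counts, in percent, for each library. Right, their summed counts per 1000000 counts of mitochondrially encoded mRNAs, on a log axis. BAT-Mito replicates 1 and 2 stand at 0.270% and 0.993% on the left, on either side of both BAT-total libraries, and at 44.9 and 207 on the right, below both.

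The genes are spread over the genome (GRCm38), and counts were summed over their exons. On the minus strand lie Hk2 (ENSMUSG00000000628) at chr6:82725025-82774454, Gpi1 (ENSMUSG00000036427) at chr7:34201330-34230336, Pfkl (ENSMUSG00000020277) at chr10:77986947-78010083, Aldoa (ENSMUSG00000030695) at chr7:126795234-126800751, Tpi1 (ENSMUSG00000023456) at chr6:124810586-124814296 and Gapdh (ENSMUSG00000057666) at chr6:125161715-125166467. On the plus strand lie Pgk1 (ENSMUSG00000062070) at chrX:106187100-106203699, Pgam1 (ENSMUSG00000011752) at chr19:41911923-41918660, Eno1 (ENSMUSG00000063524) at chr4:150236721-150248879 and Pkm (ENSMUSG00000032294) at chr9:59656368-59679375. Tpi1 and Gapdh are near each other on chromosome 6.

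Of the early enzymes, Hk2, the hexokinase that phosphorylates glucose and whose protein can bind the outer mitochondrial membrane, stood lowest in BAT-Mito relative to BAT-total. Its normalised counts were 58 and 207 in BAT-Mito, from 7 and 30 reads, and 526 and 709 in BAT-total. Both mitochondria libraries were below both others, at 0.0939 and 0.335 of the BAT-total mean. Limma gave a log2 fold change of -2.47 (SE 0.82, adjusted p 0.276). With edgeR on reads the adjusted p was 0.0716. Over the alternatives with all 4 libraries it ran from 0.0716 to 0.487, except for CPM over all genes, where it was 0.000163. As a part of the 10 genes, Hk2 had 4.36% and 4.48% in BAT-Mito and 10.4% and 11.4% in BAT-total, a ratio between genes that no scaling of libraries moves. The exact two-sided permutation test of this share gave p = 0.33, again the smallest possible.

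Gpi1, the isomerase that makes fructose 6-phosphate, had 191 and 207 normalised counts in BAT-Mito and 377 and 395 in BAT-total. Its 2 mitochondria libraries agreed within counting error, with 23 and 30 reads, and neither reached BAT-total. Limma gave a log2 fold change of -0.95 (SE 0.41, adjusted p 0.316).

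Pfkl, the liver-type subunit of phosphofructokinase, the committing step, followed the same pattern. It had 158 and 207 normalised counts in BAT-Mito, from 19 and 30 reads, and 436 and 484 in BAT-total. The groups did not overlap, and the log2 fold change was -1.34 (SE 0.44, limma adjusted p 0.271).

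Aldoa, the aldolase that cleaves fructose 1,6-bisphosphate, was the most abundant of the 10 per length of transcript. It had 358 and 1760 normalised counts in BAT-Mito, from 43 and 255 reads, and 1247 and 1718 in BAT-total. Replicate 1 was the lowest of the 4 libraries and replicate 2 the highest, so that the groups overlapped. The log2 fold change was -0.88 (SE 0.99, limma adjusted p 0.588), and it was 0.27 without BAT-Mito replicate 1.

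Tpi1, which interconverts the 2 triose phosphates, had 83 and 83 normalised counts in BAT-Mito, from 10 and 12 reads, and 136 and 142 in BAT-total. With equal values in BAT-Mito and a narrow spread in BAT-total, its limma log2 fold change was -0.74 (SE 0.41, adjusted p 0.375). This was the smallest of the 10 in size by limma, while with edgeR on reads Aldoa (-0.48) and Pkm (-0.58) were smaller.

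**Figure D2:**
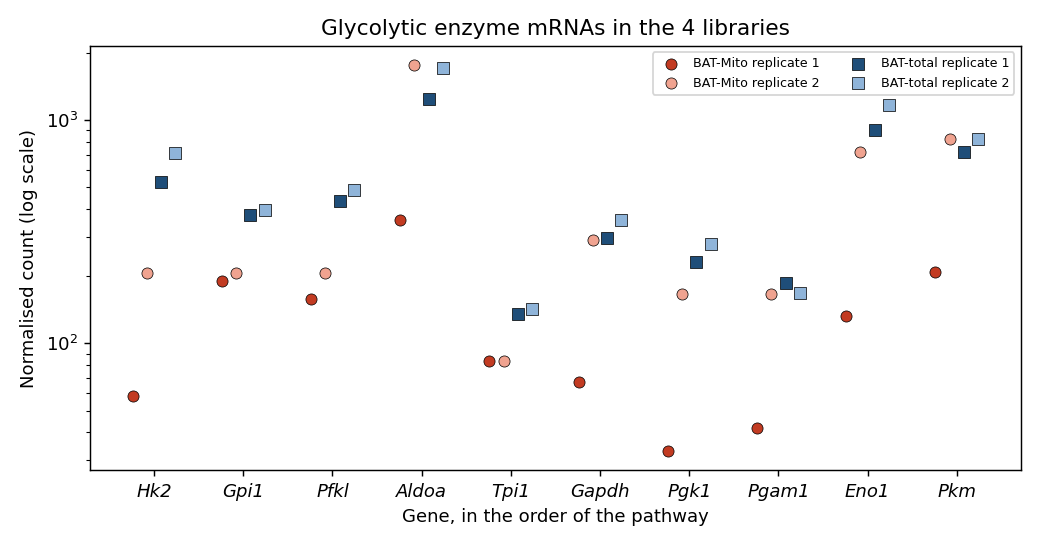
Normalised counts of the 10 glycolytic genes in each library, on a log axis, with genes in pathway order, circles for BAT-Mito and squares for BAT-total. In 8 genes both circles lie below both squares, and in Aldoa and Pkm BAT-Mito replicate 2 reaches 1760 and 821, above at least 1 BAT-total library.

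Of the later enzymes, Gapdh, the dehydrogenase that yields NADH and a common reference for RNA amounts, had 67 and 290 normalised counts in BAT-Mito, from 8 and 42 reads, and 297 and 356 in BAT-total. Replicate 2 came close to the lower BAT-total library and replicate 1 was at 0.205 of the BAT-total mean. The log2 fold change was -1.21 (SE 0.91, limma adjusted p 0.466).

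Pgk1, the first kinase to regain ATP, had 33 and 166 normalised counts in BAT-Mito, from 4 and 24 reads, and 232 and 279 in BAT-total. Its log2 fold change was -1.76 (SE 0.98, limma adjusted p 0.377). Pgam1, the mutase of the next step, had 42 and 166 in BAT-Mito, from 5 and 24 reads, and 187 and 169 in BAT-total. For Pgam1 the groups were 3 units apart, less than the worth of 1 read in either mitochondria library, and the log2 fold change was -1.08 (SE 0.86, limma adjusted p 0.485).

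Eno1, the enolase that forms phosphoenolpyruvate, had 133 and 718 normalised counts in BAT-Mito, from 16 and 104 reads, and 905 and 1163 in BAT-total. As a ratio, the gap between its mitochondria libraries was the widest of the 10 genes, at 5.40-fold in normalised counts, while in units that of Aldoa was wider. Its log2 fold change was -1.73 (SE 1.03, limma adjusted p 0.397).

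Pkm, the pyruvate kinase of most tissues, had 208 and 821 normalised counts in BAT-Mito, from 25 and 119 reads, and 722 and 820 in BAT-total. Replicate 2 exceeded the higher BAT-total library by 1 unit. The log2 fold change was -0.89 (SE 0.86, limma adjusted p 0.545), and it was 0.093 without BAT-Mito replicate 1.

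Over the 10 genes, limma called 0 higher and 0 lower at an adjusted p under 0.05, where 0.803% of the 8215 tested genes were called higher and 4.41% lower. With edgeR and with DESeq2 on reads the counts were also 0 and 0, against 2.17% and 2.5% of all tested genes with edgeR and 2.3% and 2.59% with DESeq2. At an unadjusted limma p under 0.05, 2 of the 10 were lower, Hk2 and Pfkl, against 14.9% of all tested genes. All 10 had a negative log2 fold change, as had 81.2% of the tested genes. In 8 of the 10 both mitochondria libraries lay below both others, as in 52.1% of the tested genes. The median log2 fold change of the 10 was -1.15 and that of all tested genes -1.23, and the members ranged from percentile 22.9 (Hk2) to 64.3 (Tpi1) of all genes. Glycolytic mRNAs thus stood near the middle of all tested genes. Their median lay 2.04 below the BAT-total mean in BAT-Mito replicate 1 and 0.56 below it in replicate 2 on the log2 scale, while that of all tested genes lay 1.05 and 0.92 below it. With 1 mitochondria library left, assumed to vary like BAT-total, limma called 2 of the 10 lower without replicate 1, where 41.1% of all tested genes were called lower, and 10 of the 10 without replicate 2, where 47.0% were.

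Between the 2 mitochondria libraries the genes fell into an unequal pattern. As a share of nuclear-encoded reads the 10 genes together were 3.69-fold higher in replicate 2 than in replicate 1 (95% interval 3.10 to 4.41), and all 10 had the higher share in replicate 2. In BAT-total the ratio of replicate 2 to replicate 1 was 1.25. The ratio was 5.72 (3.36 to 10.4) for Eno1, 5.28 (1.81 to 20.9) for Pgk1, 5.22 (3.77 to 7.39) for Aldoa, 4.62 (2.14 to 11.4) for Gapdh, 4.22 (1.58 to 14.2) for Pgam1 and 4.19 (2.70 to 6.73) for Pkm. Hk2 stood at 3.77 (1.62 to 10.2), and the intervals of these 7 genes overlap. For Pfkl, Gpi1 and Tpi1 the ratios were 1.39 (0.757 to 2.61), 1.15 (0.645 to 2.07) and 1.06 (0.418 to 2.73), each with an interval that includes 1. Aldoa, Eno1 and Pkm had intervals wholly above those of Gpi1 and Pfkl. Among 2598 nuclear-encoded genes with at least 10 reads in BAT-Mito, these 7 genes stood at percentiles 85.9 (Hk2) to 92.8 (Eno1) of this ratio, and Tpi1, Gpi1 and Pfkl at 43.1, 45.5 and 53.7. These intervals cover the counting of reads in these 2 libraries and say nothing about other preparations.

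**Figure D3:**
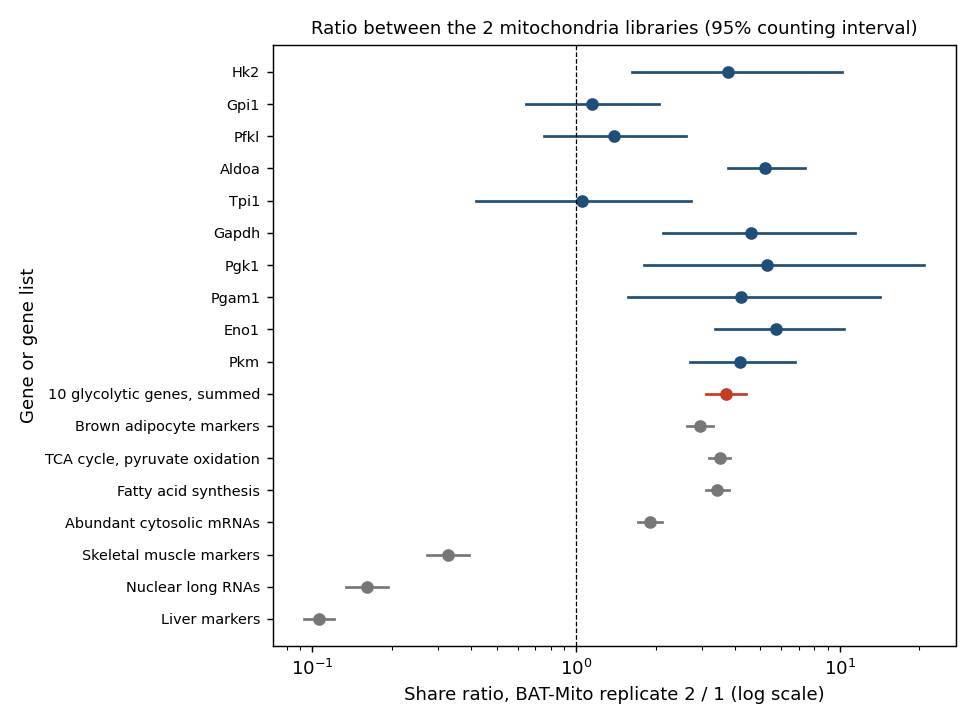
Share of nuclear-encoded reads in BAT-Mito replicate 2 divided by that in replicate 1, on a log axis, for each glycolytic gene, their sum and 7 gene lists, with 95% counting intervals as lines and equality as the dashed line. The summed glycolytic genes stand at 3.69, beside enzymes of the TCA cycle at 3.50, while liver markers stand at 0.106.

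The same ratio was taken for other gene groups. The other genes of the glycolytic pathway, described further on, had a summed ratio of 1.74 (1.44 to 2.11), wholly below that of the 10 enzymes, with 11 genes higher in each mitochondria library. Enzymes of the TCA cycle and pyruvate oxidation, which work inside mitochondria but whose mRNAs come from the nucleus, had a ratio of 3.50 (3.19 to 3.85, 25 genes). Enzymes of fatty acid synthesis and their partners, most of them cytosolic, had 3.44 (3.12 to 3.79, 12 genes). Brown adipocyte markers had 2.95 (2.63 to 3.31, 14 genes). Abundant cytosolic mRNAs such as Actb had 1.90 (1.71 to 2.11, 14 genes), an interval wholly below that of the glycolytic sum. Against BAT-total, the last 4 lists, in this order, had median log2 fold changes of -1.21, -1.26, -1.49 and -0.52, with 0 genes called by limma in any of them. At an unadjusted limma p under 0.05 they held 1, 1, 3 and 1 genes, and edgeR called 0, 0, 1 and 0. Over all tested genes 18.1% had such a p in either direction, and edgeR called 2.17% higher and 2.5% lower. Elovl3 is in the brown adipocyte and fatty acid lists, and Fabp4 in the brown adipocyte list and the list of abundant cytosolic mRNAs. Of the latter list Fabp4 gave 115 of 519 and 409 of 1120 reads in BAT-Mito. In BAT-total it gave 5208 of 10278 and 4746 of 9505 normalised counts, so that sums of this list rest in large part on 1 gene.

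Long RNAs listed as nuclear had a summed ratio below 1, at 0.161 (0.134 to 0.193), which rested mostly on Malat1. Of the 9 listed genes, not all of which are confined to the nucleus, 7 were higher in replicate 1 and 2 in replicate 2. They had a median log2 fold change of -0.98, with 0 of 9 called by limma or edgeR and 0 at an unadjusted limma p under 0.05, against 4.41% of all tested genes called lower by limma and 18.1% at the unadjusted p. For each 1000 counts of Malat1, the most abundant of them, the glycolytic genes had 243 counts in BAT-Mito replicate 1, 5731 in replicate 2, 349 in BAT-total replicate 1 and 441 in replicate 2. Replicate 2 of BAT-Mito stands alone in this ratio. Against Actb, a cytosolic mRNA, the log2 ratio of the glycolytic sum was 1.74 and 2.22 in BAT-Mito and 2.80 and 2.90 in BAT-total, a much narrower range in which both mitochondria libraries were below both others.

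Markers of other tissues and cells were summed in the same way. Liver markers had 3.69% of nuclear-encoded counts in BAT-Mito replicate 1, 0.390% in replicate 2, and 0.0858% and 0.0410% in BAT-total, with 0, 0, 0 and 7 of 15 genes at 0. Skeletal muscle markers had 0.739% and 0.241% in BAT-Mito and 0.0534% and 0.105% in BAT-total, with 1 of 12 genes at 0 in BAT-Mito replicate 2 and 0 elsewhere. Aldoa is also the aldolase of skeletal muscle, and its share was higher in replicate 2. Blood cell markers had 0.0507% and 0.136% in BAT-Mito and 0.0401% and 0.0860% in BAT-total, with 1 of 5 at 0 in BAT-Mito replicate 1. Macrophage markers had 0.0827% and 0.0931% in BAT-Mito and 0.0161% and 0.0142% in BAT-total, with 1 of 10 at 0 in each mitochondria library. Endothelial markers had 0.0320% and 0.00150% in BAT-Mito and 0.161% and 0.174% in BAT-total, with 1 and 9 of 10 at 0 in BAT-Mito. Limma called 1 gene of these lists, an endothelial one that was lower, while edgeR called 9 liver genes, 1 muscle gene and 1 macrophage gene higher and 6 endothelial genes lower. Over all tested genes, limma called 0.803% higher and 4.41% lower, and edgeR 2.17% and 2.5%. In bulk RNA, fewer cells of a type and less RNA per cell cannot be told apart. The part of these cells in the glycolytic values was not tested.

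The other genes of the pathway comprised isozymes, regulators, lactate dehydrogenases and transporters. Of 31 in the list, 25 were in the table and 18 were tested. Limma called 0 of the 18 higher and 0 lower, against 0.803% and 4.41% of all tested genes. With edgeR on reads 0 were called higher and 1 lower, against 2.17% and 2.5%. At an unadjusted limma p under 0.05 there were 4 of 18, against 18.1% of all tested genes in either direction. The median log2 fold change was -0.97, with 14 of 18 negative. The gene edgeR called was Slc2a4, the glucose transporter of fat and muscle that responds to insulin. It had 33 and 35 normalised counts in BAT-Mito, from 4 and 5 reads, and 253 and 198 in BAT-total. Limma gave a log2 fold change of -2.68 (SE 0.43, adjusted p 0.0958) and edgeR -2.72 with an adjusted p of 0.0336.

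Regulators, lactate enzymes and carriers differed among themselves. Pfkfb3, which makes the activator of phosphofructokinase, had 141 and 359 normalised counts in BAT-Mito and 895 and 1027 in BAT-total (log2 fold change -2.09, SE 0.66, limma adjusted p 0.267). Ldha, which turns pyruvate into lactate, had 191 and 476 in BAT-Mito and 557 and 643 in BAT-total. Ldhb, its heart-type partner, had 125 and 669 in BAT-Mito and 387 and 351 in BAT-total, so that its mitochondria libraries lay on either side of both others. Slc16a1, a carrier of lactate and pyruvate, had 141 and 48 in BAT-Mito and 274 and 284 in BAT-total, with the higher mitochondria value in replicate 1.

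Isozymes typical of other tissues were also listed. Pklr, the pyruvate kinase of liver and red cells, had 5 and 0 reads in BAT-Mito, or 42 and 0 normalised counts, against 2 and 0 in BAT-total. Its 5 reads fell in the library where liver markers were highest. The source of these reads was not tested. Pgam2, the mutase of muscle, had 50 and 21 normalised counts in BAT-Mito, from 6 and 3 reads, and 8 and 6 in BAT-total. Eno3, the enolase of muscle, had 33 and 21, from 4 and 3 reads, against 11 and 13. Pgam2 and Eno3 had higher values in both mitochondria libraries than in BAT-total. Pfkm, the muscle phosphofructokinase, did not, with 83 and 48 in BAT-Mito and 66 and 95 in BAT-total. The log2 fold changes of Pgam2 and Eno3 were 2.08 (SE 0.63) and 1.08 (SE 0.48), with limma adjusted p-values of 0.261 and 0.321.

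Several of the 10 transcripts have processed copies in the genome. Reads that fit several places were left out by the authors, so that a stretch of sequence present in another gene could give no count. Of all windows of 75 bases, the length of the reads, the share found in no other annotated transcript of GENCODE M21 was 100% in Hk2 and Pfkl, 98.5% in Aldoa, 97.5% in Tpi1, 85.2% in Gpi1 and 80.4% in Pkm. It was 59.4% in Pgam1, 34.6% in Eno1, 32.5% in Pgk1 and 19.7% in Gapdh. Within the coding sequence of Pgam1, Pgk1 and Gapdh 0% of the windows were unique. Gapdh shared windows with 121 other annotated genes, Eno1 with 6, Pgk1 with 4, Pkm with 3, and Pgam1, Aldoa, Gpi1 and Tpi1 with 2 each. Hk2 and Pfkl shared none.

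Gapdh shows how far this goes, and its sequence is given for that reason. The window of its coding sequence that occurs in the most other genes, 49 of them, lies in exon 4 of 7 of transcript ENSMUST00000118875.7, at chr6:125162873-125162947 on the minus strand of GRCm38. The second stretch, at chr6:125162541-125162708 on the same strand, is bounded by the Gapdh primers of the RT-qPCR assay of the study, whose sites are in capitals. It lies wholly in exon 5. The forward primer occurs in 56 other annotated genes and the reverse primer in 94, by exact match over all 20 bases.
Gapdh shared window: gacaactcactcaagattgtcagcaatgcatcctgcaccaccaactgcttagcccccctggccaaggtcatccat
Gapdh RT-qPCR stretch: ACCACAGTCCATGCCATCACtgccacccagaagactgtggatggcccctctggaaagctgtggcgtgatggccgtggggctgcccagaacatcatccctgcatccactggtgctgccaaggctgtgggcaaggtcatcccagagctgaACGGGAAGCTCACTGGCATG

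The copies themselves held counts. Eno1b, the intronless copy of Eno1 with 99.5% identity over 1736 bases, had 141 and 317 normalised counts in BAT-Mito and 316 and 349 in BAT-total, and the pseudogene Gm4735 had 75 and 221 against 224 and 252. In both BAT-Mito replicate 2 was above replicate 1, while the copy Gm5855 had 33 and 21 in BAT-Mito and 20 and 29 in BAT-total. The listed matches of Gapdh were 97 genes with at least 90% identity over at least 100 bases. They summed to 401 and 862 in BAT-Mito and 571 and 779 in BAT-total, more than Gapdh itself in each library. Among them was Peli2, a gene that is not itself a copy of Gapdh, with 8 and 55 in BAT-Mito and 42 and 66 in BAT-total. Reads from stretches shared with a copy were left out, so that the values of Gapdh, Eno1, Pgk1 and Pgam1 rest on part of each transcript and are uncertain.

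The order of the levels depended on this share. Per kilobase of transcript, the BAT-total means of normalised counts were 981 for Aldoa, 510 for Eno1, 317 for Pkm, 230 for Gapdh, 140 for Pgk1, 134 for Gpi1, 123 for Pfkl, 112 for Hk2, 100.3 for Pgam1 and 86.5 for Tpi1. Of neighbours in this order, Pgk1 and Gpi1, Pfkl and Hk2, and Hk2 and Pgam1 overlapped between the BAT-total libraries. The other neighbours did not, though Gpi1 and Pfkl were barely apart. Per kilobase of unique windows, Eno1 came first with 1532, then Gapdh with 1232 and Aldoa with 1048, and Tpi1 stayed last with 93.0. In BAT-Mito the means per kilobase of unique windows were 748 for Aldoa, 674 for Gapdh and 630 for Eno1, down to 24.4 for Hk2. Fold changes within a gene do not use these lengths.

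**Figure D4:**
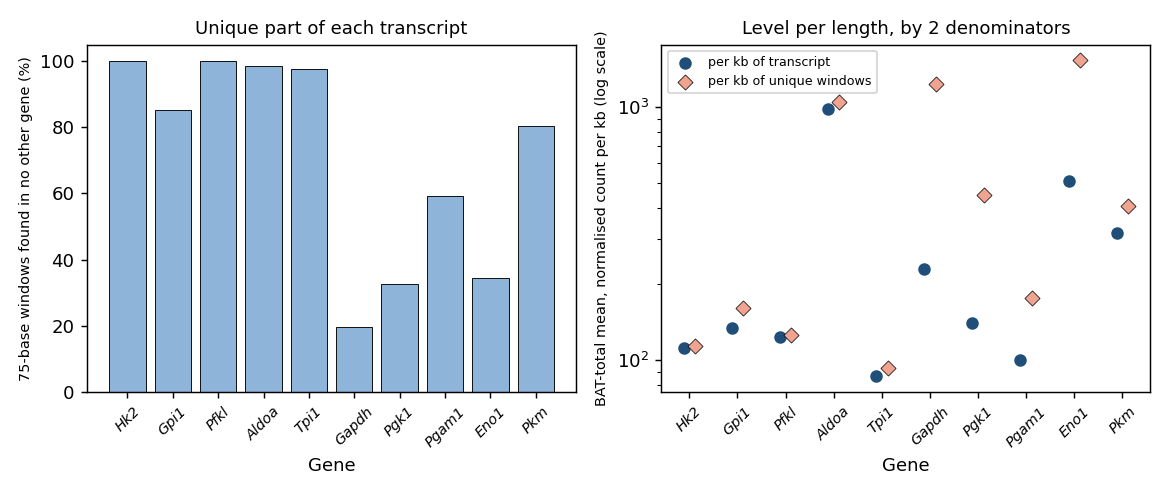
Left, percent of the 75-base windows of each transcript that occur in no other annotated gene. Right, BAT-total mean of normalised counts per kilobase of transcript (circles) and per kilobase of unique windows (diamonds), on a log axis. Gapdh, with 19.7% unique windows, moves from 230 to 1232 per kilobase, while Hk2 and Pfkl, with 100%, stay near their circles.

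Transcript length was looked at because fragmentation of the mitochondrial samples was adjusted to the size of their RNA. Across the 10 genes longer transcripts tended to have lower log2 fold changes (Spearman's rho -0.48, Pearson's r with log2 length -0.59, n = 10). Hk2, the longest at 5513 bases, was the lowest. The next lowest, Pgk1 and Eno1, were of middle length, at 1825 and 2027 bases, and the coefficients were not taken without Hk2. Across 8160 tested nuclear-encoded genes the coefficients with exon length were -0.19 and -0.20. Genes of 1 library set are not independent replicates, and these are descriptions.

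The 5 nuclear-encoded genes whose profile over the 4 libraries was nearest to the mean profile of the glycolytic genes, by Euclidean distance of centred log2 values among 8151 genes, were Gbe1, Jmjd1c, Zhx1, Mbnl2 and Iqsec1, at distances of 0.0853 to 0.136. Gbe1, the glycogen branching enzyme, had 58 and 173 normalised counts in BAT-Mito and 242 and 287 in BAT-total. The members themselves lay at 0.409 (Gapdh) to 1.23 (Tpi1) from their own mean, so that the genes nearest to it were not among them.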

How the data were processed

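Reads were processed by the authors. Per the methods of the study and the submitters' processing notes, single-end reads were trimmed (Trimmomatic 0.39), aligned to GRCm38 (mm10) with STAR and counted over exons with featureCounts, and reads of several positions or genes were left out. The notes name STAR 2.7.10a, featureCounts 2.0.2 and DESeq2 1.30.1, and the methods other versions of these. The deposited values are a signal, gene counts divided by a size factor and rounded, and no other column held sample values. Reads were recovered from the steps of the BAT-Mito columns (100.0% of values whole, within 0.51 units). BAT-total showed no steps.

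Genes with a mean of at least 10 (8215) were compared as log2 of the value plus 1 with limma 3.58.1 in R 4.3.3, Benjamini-Hochberg adjusted, tested on simulated data. A fold change on this scale understates that of low genes. As alternatives, reads were tested with edgeR 4.0.16 and with DESeq2 1.42.0, with BAT-total values taken as reads and the deposited scaling kept, another pseudocount, filters, scalings, a replicate block and leaving out each library. Genes resembling mitochondrial transcripts (17, BLAST 2.17.0, 90% identity over 50 bases) were left out of nuclear-encoded totals. Listed genes with the coordinates of GENCODE M21 were 17099 (99.1%). The members and lists were chosen with earlier results of these data known. Named were all members, some of the tested pathway genes, some copies of members and the 5 nearest profiles, with Actb and Malat1 as references. Eno1b, Gm4735, Gm5855 and Peli2 were picked among copies, and 2 Gapdh stretches for their copies, after values were seen. Fabp4 and Elovl3 were named for belonging to several lists, and Fabp4 also for its part of a list's counts. One gene of the pathway list is not reported here.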

Additional observations from a re-analysis of the deposited data

How the results depend on the processing

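Both groups carry the replicate numbers 1 and 2, without a stated pairing. Libraries of the same number deviated from their group means with a correlation of 0.112, and the replicate block was an alternative only. With the replicate block 0 of the 10 genes were higher and 0 lower, as were 0 of all 8215 genes (limma, 944 at an unadjusted p under 0.05), and the median of the 10 was -1.15. The count of 0 lower genes became 10 with CPM over all genes, where 96.9% of all genes were called lower and which moves the median of the 10 to -7.78 and that of all tested genes to -7.15, and 1 (Gpi1, limma adjusted p 0.0473) with no filter on low values, where 20.8% of 17259 genes were called lower. The count of higher genes was 0 under every alternative run. The median of the 10 relative to all tested genes was 0.084 and turned to -0.32 with a pseudocount of 10, -0.18 with the minimum mean raised to 50, -0.63 with CPM, and -0.095 and -0.096 with edgeR and DESeq2, all within 1 SD between the mitochondria libraries.

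Leaving out 1 library gave 0 to 10 lower genes (0 without either BAT-total library, where limma called 0 of all genes lower and 500 and 493 had an unadjusted p under 0.05, against 41.1% and 47.0% of all genes without BAT-Mito replicate 1 and 2), a relative median of -0.99 to 0.35, a median of -2.04 to -0.56, a difference in share of -0.503 to 0.220 percentage points and a log2 difference per mitochondrial mRNA of -9.80 to -7.59. Aldoa ranged from -2.03 to 0.27 and Pkm from -1.88 to 0.093, both positive only without BAT-Mito replicate 1. Counting the genes that resemble mitochondrial transcripts as nuclear moved the difference in share to -0.691 percentage points, since their reads enter the BAT-Mito totals. Of the 100 comparisons of a single gene with another setting and all libraries, 89 kept direction and side of the threshold, and the other 11 became calls, 10 of them with CPM. With as few as 4 reads a gene in BAT-Mito, single ratios are loosely bounded.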
